A study of Mus musculus with 24 samples.

Results

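Enriched old mice were compared with young mice, with the single mouse as the replicate. The comparison held 16 of the 24 dentate gyrus libraries of the series, grouped by their labels: 8 aged mice from an enriched environment (ENR) and 8 young mice from standard cages (STD). The 8 aged mice of standard housing were left out. Of 694379 CpG rows in the deposited table, 299573 were autosomal and measured in 5 or more mice per group, and these gave 21909 windows of 1 kb, called tiles here, with at least 3 CpG rows and at least 6 mice of each group.

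All mice were female C57BL/6JRj. The young mice were 3 months old and came from standard housing. The aged mice were 17 months old and had spent the last 3 months in a large shared enclosure with tunnels and plastic toys, while standard mice lived in plain cages in small groups. Each library came from the micro-dissected dentate gyrus of a single animal and was made by reduced representation bisulfite sequencing (RRBS), which cuts DNA at CCGG sites and so reads mostly CpG-rich fragments. Age and housing differed together between these groups, so that an effect of the one and an effect of the other cannot be told apart here. Mice of an enriched enclosure were kept together; which enclosure, cage or litter a mouse came from is not given in the sources used here, and the p-values below measure the spread between mice that may have shared one. Expression was not measured in these libraries, so the tissue label was not checked against marker transcripts.

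DNA methylation at CpGs is written by DNA methyltransferases and removed by passive loss at replication or through oxidation by Tet enzymes. In a given cell and at a given allele a CpG is either methylated or not. A percentage between the extremes therefore reports a mixture, of cells, of alleles or of copies of a repeat. The dentate gyrus is made up mainly of granule neurons, together with astrocytes, oligodendrocytes and their precursors, microglia, vessel cells and the stem cells of adult neurogenesis. In bulk tissue a change in the share of these cells and a change of methylation within a cell type cannot be told apart.

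A young mouse had a percentage at 374198 to 474417 autosomal CpG rows with a median of 408248, and an enriched mouse at 298763 to 588869 with a median of 456259. The group means did not differ beyond the spread between mice (difference 34905, two-sided exact permutation p = 0.360). Over the 19083 CpG rows with a value in all 16 mice, 54.2 to 70.5% of the values of a young mouse and 42.8 to 78.1% of those of an enriched mouse were exactly 0 or 100%. The 2 lowest shares, 42.8 and 45.0%, belonged to enriched mice 8 and 4, which also had the most covered CpGs. The table gives no read numbers, so the depth behind a single percentage is unknown and no counting interval could be given.

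Methylation was slightly lower in enriched old mice. Over the 19083 shared CpGs the mean was 47.2% ± 0.518 (SD, n = 8) in young mice and 46.5% ± 0.346 (SD, n = 8) in enriched mice. Single young mice lay between 46.8 and 48.3% (median 47.2%) and enriched mice between 46.0 and 47.0% (median 46.5%). All 8 enriched mice lay below the young median, although the ranges overlapped. The difference of the means was -0.769 points (exact permutation p = 0.00155, two-sided like all tests unless stated; the smallest p that 8 against 8 mice allow is 0.000155).

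The lower level was found near genes and between them. CpGs within 1 kb of a transcription start, called promoter CpGs, fell from 14.5% ± 0.354 to 13.96% ± 0.243 (7229 CpGs, SD, n = 8; difference -0.543 points, exact permutation p = 0.00155, adjusted p = 0.00404). Intron CpGs fell from 65.2% ± 0.798 to 64.0% ± 0.666 (4574 CpGs; difference -1.18 points, adjusted exact permutation p = 0.00404). Intergenic CpGs fell from 70.2% ± 0.563 to 69.4% ± 0.416 (6413 CpGs; difference -0.735 points, adjusted exact permutation p = 0.0102), a call that ended without enriched mice 4 and 8 (-0.610 points, adjusted exact permutation p = 0.0542). Exon CpGs, of which only 867 were shared, gave 55.8% ± 1.16 and 55.1% ± 0.632, a difference of -0.752 points that did not pass (adjusted exact permutation p = 0.115); it passed without young mouse 2, 4 or 7 (-1.13 to -1.02 points, adjusted exact permutation p = 0.0171 to 0.0430).

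**Figure D1:**
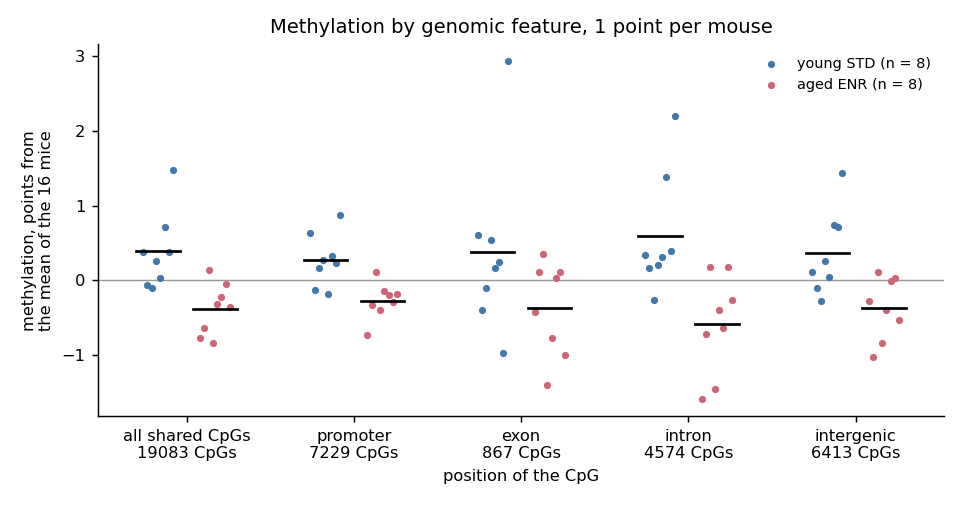
Methylation of each mouse over all shared CpGs and over promoter, exon, intron and intergenic CpGs, as points (percentage points) from the mean of the 16 mice; dots are mice, blue for young STD and red for aged ENR, and black bars are group means. The enriched mean lies below the young mean in every position, and the highest exon value belongs to young mouse 8 (58.4%).

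The fall was not spread evenly over the range of methylation. The shared CpGs were put in 6 classes by their mean over all 16 mice, a grouping that treats both groups alike. CpGs of 10 to 25% mean methylation fell the most in relation to their level. In the 1644 CpGs of this class a young mouse averaged 16.2 to 21.3% with a median of 17.6%, and an enriched mouse 13.3 to 15.6% with a median of 14.3%. Every enriched mouse was lower than every young mouse. The group means were 17.9% ± 1.70 and 14.2% ± 0.801 (SD, n = 8), a difference of -3.71 points, at the smallest p the design allows (exact permutation p = 0.000155, adjusted p = 0.000932).

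The next class moved in the same direction. In the 1135 CpGs of 25 to 50% single young mice lay between 36.0 and 43.6% (median 37.3%) and enriched mice between 32.0 and 36.4% (median 33.4%). Only the top of the enriched range and the bottom of the young range overlapped. The means were 38.1% ± 2.62 and 33.9% ± 1.68, a difference of -4.15 points (adjusted exact permutation p = 0.00373).

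The other 4 classes gave smaller differences. In the 1122 CpGs of 50 to 75% the means were 65.0% ± 2.01 and 63.1% ± 1.41, a difference of -1.94 points that missed the threshold after adjustment (exact permutation p = 0.0420, adjusted p = 0.0629); it passed without young mouse 3 or enriched mouse 5, 6 or 7 (adjusted exact permutation p = 0.0143 to 0.0392). The 7256 CpGs under 10% averaged 2.67% ± 0.200 and 2.36% ± 0.294 (difference -0.314 points, adjusted exact permutation p = 0.0603), and this class passed on leaving out any of enriched mice 3 to 8 (adjusted exact permutation p = 0.00839 to 0.0371). The 2059 CpGs of 75 to 90% averaged 84.3% ± 0.887 and 84.0% ± 0.917 (difference -0.311 points, adjusted exact permutation p = 0.502). The 5867 CpGs over 90% averaged 95.9% ± 0.305 and 96.1% ± 0.483 (difference 0.208 points, adjusted exact permutation p = 0.382; 0.00334 to 0.431 points on leaving out single mice). Without enriched mice 4 and 8, the class over 90% differed by 0.762 points (adjusted exact permutation p = 0.00266) and the class under 10% by -0.638 points (adjusted exact permutation p = 0.000999).

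**Figure D2:**
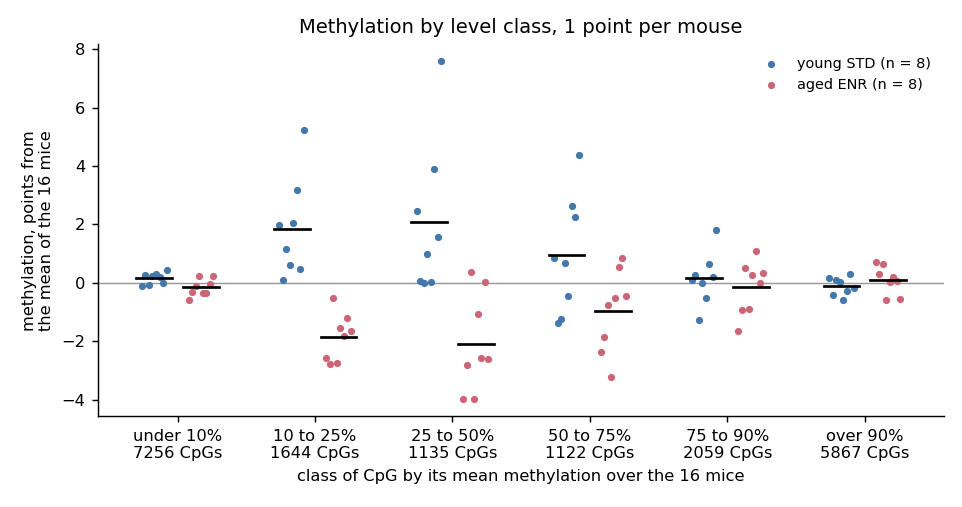
Methylation of each mouse in 6 classes of CpGs by mean level, as points from the mean of the 16 mice; dots are mice, blue for young STD and red for aged ENR, and black bars are group means. The groups do not overlap in the class of 10 to 25% (13.3 to 15.6% against 16.2 to 21.3%) and lie close together at 75% and above.

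The single CpGs of these classes leaned the same way without being uniform. Of the 1644 CpGs of 10 to 25%, 1081 (65.8%) had a lower mean in enriched mice and 563 (34.2%) a higher one, with a median difference of -3.61 points. Of the 1135 CpGs of 25 to 50%, 721 were lower and 414 higher. Over 90% the balance was 2658 lower and 2925 higher.

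Next, the CpGs of 10 to 50% were merged into a single class and split by position and sequence. This merged class and its subsets were chosen after the values of the classes had been seen, so their p-values are not independent support for the fall itself. A window of repeated ribosomal DNA on chromosome 17, described below, was set aside. The 2592 CpGs left averaged 26.1% ± 2.21 in young and 22.3% ± 1.18 in enriched mice (difference -3.83 points). Young mice ranged from 24.2 to 30.8% and enriched mice from 20.9 to 23.9%, without overlap; the highest young value belonged to mouse 8. Among these CpGs 27.9% were promoter CpGs, against 37.9% of all shared CpGs, and 31.1% lay in introns, against 24.0%. Their median number of CpGs within 100 bases on each side was 5, against 6 for all shared CpGs.

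The mean was lower in enriched mice on each of the 19 autosomes. The differences ran from -1.02 points on chromosome 8 to -5.81 points on chromosome 16, with a median of -4.11 points. It was lower on the plus strand (-3.72 points) and on the minus strand (-3.96 points), and in soft-masked repeats (-3.58 points, 290 CpGs) as outside them (-3.86 points, 2302 CpGs). Intron CpGs fell by 4.71 points and promoter CpGs by 2.70 points (adjusted exact permutation p = 0.000673 and 0.0279). The difference between these 2 falls, tested within mice, did not pass (-2.01 points, exact permutation p = 0.0632, adjusted p = 0.0759).

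The fall was smaller at CpG-dense sites. Where at most 5 CpGs lay within 100 bases on each side, 1543 CpGs fell from 27.7% ± 2.86 to 23.4% ± 1.52 (SD, n = 8; -4.29 points, adjusted exact permutation p = 0.00141). With 6 to 12 neighbours, 871 CpGs fell from 24.4% ± 1.64 to 20.7% ± 0.896 (-3.69 points, adjusted exact permutation p = 0.000673). With more than 12, as in a CpG island, 178 CpGs averaged 20.8% ± 3.22 and 20.3% ± 2.62, and 100 were lower and 78 higher (-0.532 points, exact permutation p = 0.722). The within-mouse gap between sparse and dense CpGs narrowed from 6.88 points in young to 3.12 points in enriched mice (-3.76 points, exact permutation p = 0.0283, adjusted p = 0.0424).

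CpGs inside CCGG sites, where the enzyme of RRBS cuts, fell by 4.67 points and the other CpGs by 2.80 points. Tested within mice this gap was -1.87 points (exact permutation p = 0.0157, adjusted p = 0.0314). Relative to CpGs over 90% in the same mouse, those of 10 to 50% moved by -4.04 points, and relative to CpGs under 10% by -3.52 points, values given as a description since the class was formed for its fall.

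**Figure D3:**
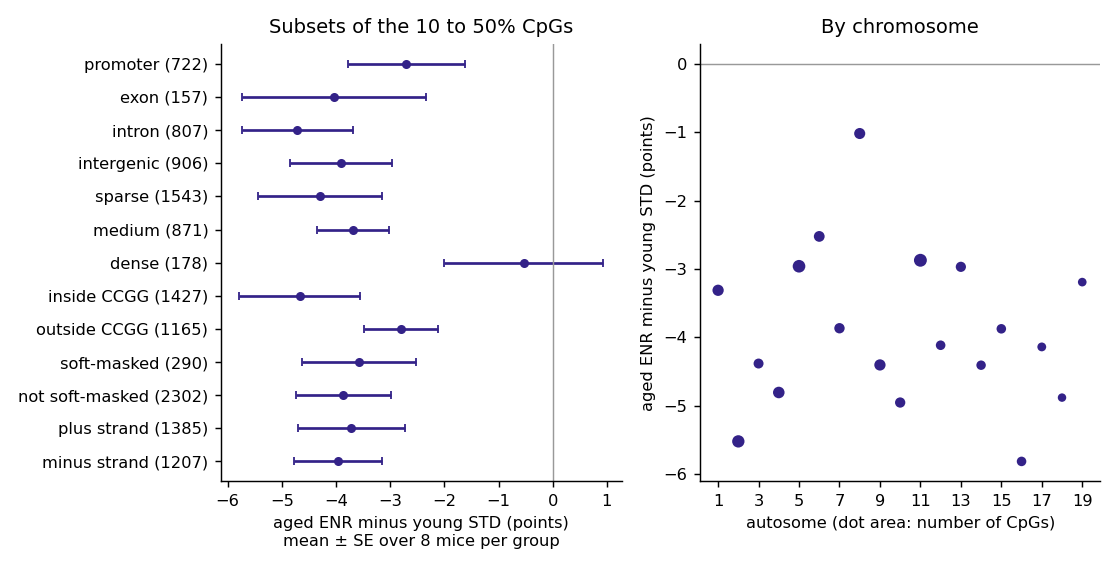
Aged ENR minus young STD at CpGs of 10 to 50% mean methylation, in percentage points. On the left each dot is a subset with its number of CpGs in brackets and bars are the SE over 8 mice per group; on the right each dot is an autosome and its area the number of CpGs. All subsets but the CpG-dense one (-0.532 points) lie 2.70 points or more below 0, and all 19 autosomes lie below 0.

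These CpGs were scattered: they fell in 1694 windows of 1 kb, and 25 windows held 5 or more of them. Of the 25 windows, 17 had a lower mean in enriched mice. The windows below are named after their values were seen and carry no test. In Cdk8, which encodes a kinase of the Mediator complex, 12 CpGs (chr5:146261000-146261999) averaged 17.8% ± 2.62 in young and 13.6% ± 2.42 in enriched mice. In a window over Chka, choline kinase alpha, and Gm16066, whose start was the nearest, 5 soft-masked CpGs (chr19:3852000-3852999) averaged 31.7% ± 4.98 and 22.5% ± 5.58. The largest window, with 28 CpGs, overlapped Zc3h7a and Gm23935 (chr16:11144000-11144999). It gave 21.6% ± 4.61 and 18.3% ± 5.63, a difference within the spread between mice. At the imprinted Zrsr1 and Commd1 locus (chr11:22972000-22972999) 7 CpGs were higher in enriched mice, 29.8% ± 30.9 against 48.2% ± 34.4, with SDs above the difference.

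The ribosomal window was also looked at on its own, after its values were seen. Ribosomal RNA genes lie in tandem arrays of many copies, part of which are kept silent with methylated promoters. On chromosome 17 the reference holds a single assembled piece of this repeat, annotated as Gm26917, Gm42418, AY036118 and CT010467.1 and by RefSeq as the small-subunit ribosomal pseudogene Rn18s-rs5. Reads of the arrays can be placed there, so the percentages may stand for many copies and are uncertain. Part of the third tile is shown because it carried the smallest p of the window; capitals mark the CpGs with a percentage in the table (chr17:39845826-39845993, GRCm38, plus strand, RefSeq sequence).
Gm26917: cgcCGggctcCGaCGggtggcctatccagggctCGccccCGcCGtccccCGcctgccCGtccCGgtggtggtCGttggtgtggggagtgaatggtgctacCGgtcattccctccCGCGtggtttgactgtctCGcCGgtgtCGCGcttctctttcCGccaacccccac
This stretch of 168 bases had a GC content of 70.2% and held 19 CpGs, of which 18 were measured.

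Over the 230 rows of the window with a value in all mice, young mice averaged 27.5% ± 2.36 and enriched mice 23.1% ± 2.34 (SD, n = 8; difference -4.43 points, exact permutation p = 0.00155). Young mouse 1 was highest with 32.9% and enriched mouse 5 lowest with 20.4%. The ranges overlapped, since enriched mouse 3 reached 27.4% and young mouse 3 was at 25.7%. All 6 tiles of the window were lower in enriched mice, with differences from -2.08 to -5.73 points (the smallest, at AY036118, was -4.67 to -0.108 points on leaving out single mice). In the third tile, with 109 rows, young mice lay between 20.9 and 29.5% (median 22.4%) and enriched mice between 15.1 and 19.8% (median 18%), without overlap (difference -5.73 points, SE 1.25, limma unadjusted p = 0.000343, adjusted p = 0.901). In the sixth tile the difference was -4.70 points (SE 1.34, limma unadjusted p = 0.00310, adjusted p = 0.901).

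**Figure D4:**
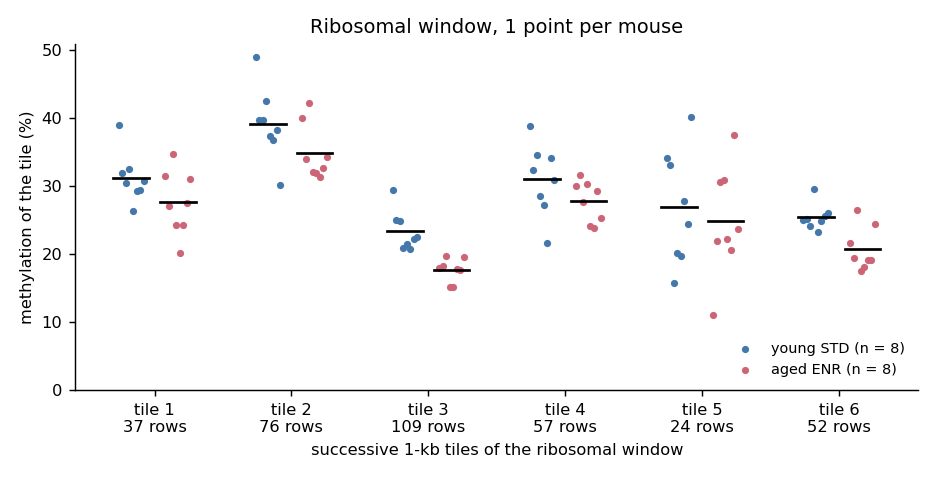
Methylation (%) of each mouse in 6 successive tiles of 1 kb of the ribosomal window, with the number of CpG rows under each; dots are mice, blue for young STD and red for aged ENR, and black bars are group means. The groups are apart in the third tile (20.9 to 29.5% against 15.1 to 19.8%) and overlap in the other tiles.

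At the level of single tiles no change passed the test. Of 21909 tiles limma called 0 (0%) at an adjusted p under 0.05 (smallest adjusted p = 0.356), while 886 (4.04%) fell under 0.05 before adjustment, 553 of them lower in enriched mice (2.52%) and 333 higher (1.52%). A difference over 25 points was seen in 194 tiles (0.885%), 151 lower and 43 higher; leaving out young mouse 1, 3, 5, 6 or 8 or enriched mouse 4, 5 or 8 gave 112 to 128 such tiles, with fewer tiles tested. Wherever mice were left out, CpG rows and tiles were chosen again, so a tile's value could then rest on other rows. The median difference over all tiles was -0.185 points and the median SE of a tile 3.10 points. In 11 tiles (0.0502%) every enriched mouse was below every young mouse, and in 2 (0.00913%) above.

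Sorted by level, the tiles repeated the pattern of the CpGs in coarser form. Of 1788 tiles of 10 to 25% mean methylation, 1140 (63.8%) were lower in enriched mice, with a median difference of -3.09 points, and of 1346 tiles of 25 to 50%, 869 (64.6%) were lower, with a median of -4.43 points. Of 5196 tiles over 90%, 2530 (48.7%) were lower. The median SE was 7.41 and 10.6 points in these tiles, 10.4 points in tiles of 50 to 75% and 1.67 points in tiles under 10%. The tiles share CpGs with the classes above.

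The 5 tiles with the smallest p in each direction are given next, and none of them was called. The first lower tile lay in an intron of Nek1, a kinase of the primary cilium and of DNA repair. It is shown because it heads the list; capitals mark its measured CpGs (chr8:61018332-61018463, GRCm38, plus strand, RefSeq sequence).
Nek1 intron tile: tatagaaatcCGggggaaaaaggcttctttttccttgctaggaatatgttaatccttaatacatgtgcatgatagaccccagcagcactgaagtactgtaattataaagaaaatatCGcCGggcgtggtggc
All 7 young mice with a value were at 100%, and the 7 enriched mice lay between 74.6 and 91.5% (median 88.1%). The groups did not overlap (difference -15.3 points, SE 2.50, limma unadjusted p = 3.48e-05, adjusted p = 0.356). The tile held 3 CpG rows, 2 of them soft-masked.

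The third lower tile lay within 1 kb of a transcription start of Rasa4 (chr5:136084000-136084999). Rasa4 encodes a Ras GTPase-activating protein. The stretch is shown as the tile of the list nearest to a coding gene's start, with measured CpGs in capitals (chr5:136084581-136084731, GRCm38, plus strand, RefSeq sequence).
Rasa4: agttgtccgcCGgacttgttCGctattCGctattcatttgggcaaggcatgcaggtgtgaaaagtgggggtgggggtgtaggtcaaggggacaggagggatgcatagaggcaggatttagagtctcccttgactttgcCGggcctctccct
The 7 young mice with a value lay between 7.07 and 23.7% (median 13.5%), and the 8 enriched mice between 0 and 5.95% (median 0%). Again the groups did not overlap (difference -12.2 points, SE 2.13, limma unadjusted p = 4.87e-05, adjusted p = 0.356).

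The other lower tiles lay in non-coding sequence. A tile mostly in an exon of the long non-coding RNA Gm45708 (chr8:93627000-93627999) averaged 51.0% ± 9.48 in young and 22.2% ± 13.8 in enriched mice (difference -28.7 points, adjusted p = 0.639), and only young mouse 2 was below the highest enriched mouse. An intergenic tile near Gm15611 (chr5:9005000-9005999) averaged 37.2% ± 15.4 and 7.86% ± 9.02 (difference -29.3 points, adjusted p = 0.827), with overlap.

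The second tile among the higher ones was intergenic, nearest to Gm26831, and the stretch that holds 5 of its 7 measured rows is shown with these CpGs in capitals (chr1:119077254-119077411, GRCm38, plus strand, RefSeq sequence).
Gm26831 tile: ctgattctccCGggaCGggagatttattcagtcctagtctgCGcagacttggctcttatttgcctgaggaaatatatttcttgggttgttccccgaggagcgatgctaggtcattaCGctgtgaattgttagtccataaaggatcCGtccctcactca
The 7 young mice with a value lay between 0 and 61.6% (median 50%), and the 7 enriched mice between 71.4 and 100% (median 81.4%). The groups did not overlap (difference 44.5 points, SE 9.19, limma adjusted p = 0.901).

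The first higher and the second lower tile lay between genes on chromosome 18. In the lower one (chr18:46808000-46808999), nearest to AC123927.1, the 6 young mice with a value lay between 76.9 and 100% (median 98.7%) and the 7 enriched mice between 0 and 66.7% (median 29.2%), without overlap (difference -61.6 points, SE 9.82, limma unadjusted p = 3.97e-05, adjusted p = 0.356). In the higher one (chr18:83974000-83974999), nearest to the pseudogene AC124231.2, young mice averaged 83.4% ± 4.63 and enriched mice 95.6% ± 4.83 (difference 12.2 points, limma adjusted p = 0.510).

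The remaining 3 higher tiles lay in coding genes. In an exon of Hivep2, a zinc finger transcription factor, young mice averaged 76.4% ± 8.07 and enriched mice 91.2% ± 8.28 (chr10:14130000-14130999, difference 14.8 points, tile Gm28289 by nearest start). Without enriched mouse 3, 4, 5, 7 or 8 its rows were chosen again, and the difference was 5.23 to 6.35 points. Over all rows it was 5.60 points. In an exon of Rbbp6, which encodes an RB1-binding ubiquitin ligase, the 8 young mice stayed between 0 and 2.32% and the 6 enriched mice lay between 0 and 61.5% (median 24%) (chr7:123001000-123001999, difference 25.6 points). In Zfp385b, a zinc finger gene, at an alternative start, the 6 young mice were at 0 to 3.57% and the 6 enriched mice at 6.80 to 40.4%, without overlap (chr2:77518000-77518999, difference 21.1 points). All 3 coding tiles had a limma adjusted p = 0.901.

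**Figure D5:**
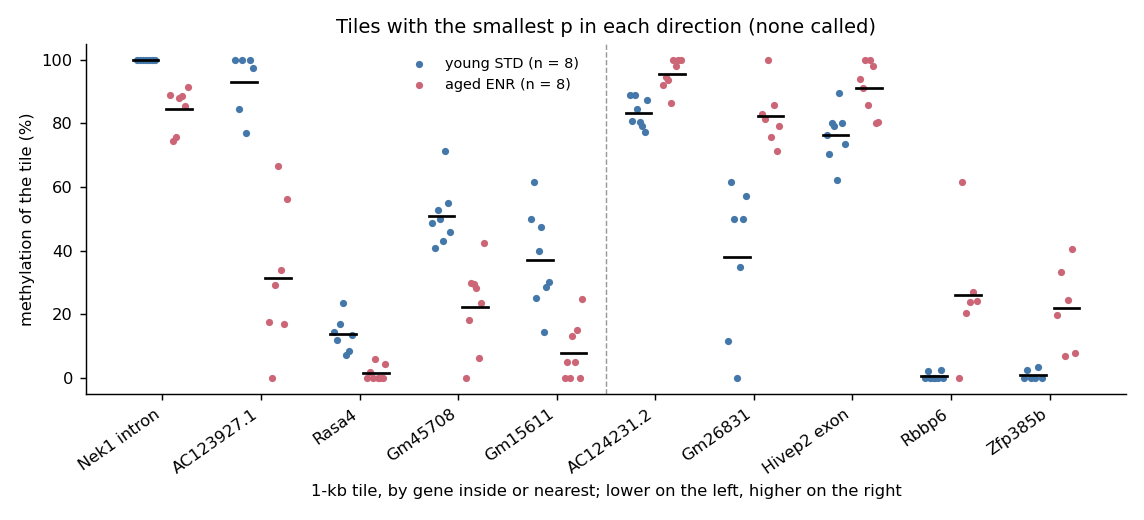
Methylation (%) of each mouse in the 5 lower (left of the dashed line) and 5 higher tiles with the smallest p; dots are mice with a value (6 to 8 per group), blue for young STD and red for aged ENR, and black bars are group means. None was called; all 7 young mice of the Nek1 intron tile are at 100%.

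Of 299573 single CpGs, 1 (0.000334%) was called by limma at an adjusted p under 0.05 with a difference over 25 points, and 5127 (1.71%) fell under 0.05 before adjustment, 3325 lower (1.11%) and 1802 higher (0.602%). With 3 mice per group as the minimum, as the authors used, 76 CpGs were called, 58 lower and 18 higher. At 15764 CpGs (5.26%) the means differed by over 25 points, 9820 lower and 5944 higher. The called CpG was lower in enriched mice. It lay in an intron of the coding transcripts of Psrc1, which encodes a microtubule-associated protein of the mitotic spindle, 370 bases from the start of a shorter non-coding transcript of the gene (position 108386435 on chromosome 3, plus strand). It is shown in capitals (chr3:108386375-108386496, GRCm38, plus strand, RefSeq sequence).
Psrc1: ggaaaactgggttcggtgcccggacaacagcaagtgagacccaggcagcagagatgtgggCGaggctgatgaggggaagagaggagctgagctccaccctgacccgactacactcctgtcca
The 5 young mice with a value were at 44.4, 47.6, 48.8, 51.9 and 56.3%, and all 6 enriched mice with a value were at 0%. The difference was -49.8 points (SE 1.78, limma adjusted p = 7.39e-05). A value was missing in 3 young and 2 enriched mice, and leaving out any of young mice 1, 2, 5, 6 and 8 took the CpG below the minimum of 5 mice. Leaving out single mice gave 0 to 4 called CpGs in all: 0 without young mouse 2 or 8, 2 without young mouse 1 or 4 or enriched mouse 3, 4 or 7, 3 without enriched mouse 1 and 4 without enriched mouse 8. Because all enriched values were equal, the SE rests on the young mice. The other measured CpG within 50 bases averaged 40.3% in young and 0% in enriched mice, with young mouse 8 at 0% there, and close CpGs can share reads.

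The next CpGs were not called in this fit. A CpG in an intron of Srebf2, a transcription factor of cholesterol synthesis, was at 34.2 to 50.8% in 6 young and 0 to 18.2% in 7 enriched mice (position 82165066 on chromosome 15, difference -38.0 points, limma adjusted p = 0.0840), and was called with 3 mice per group (limma adjusted p = 0.0112) and without enriched mouse 3 (limma adjusted p = 0.0209). A CpG of the chromosome 18 tile near AC123927.1 averaged 95.7% and 11% (difference -84.7 points, limma adjusted p = 0.0840), and was called with 3 mice per group (limma adjusted p = 0.0144) and without enriched mouse 8 (limma adjusted p = 0.000418). The first higher CpG was intergenic on chromosome 17 (position 27224832), with 0 to 41.0% in 6 young and 78.6 to 100% in 5 enriched mice (difference 78.4 points, limma adjusted p = 0.188). Its other measured CpG within 50 bases averaged 21.9% in young and 93.8% in enriched mice. A CpG in an intron of Tmem132c was at 0% in all 5 young mice and at 52.2 to 100% in 5 enriched mice (position 127356134 on chromosome 5, difference 85.1 points, limma adjusted p = 0.285). There the other measured CpG within 50 bases did not share the difference, with 31.8% in young and 35.5% in enriched mice. A CpG in an intron of AC116597.1 on chromosome 18 (position 53671358) averaged 85.7% and 97.9% (difference 12.3 points, limma adjusted p = 0.703).

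Gene lists were read against these backgrounds, as counts of tiles by the gene with the nearest transcription start. No tile of any of the 13 lists was called by limma (0 of 21909 tiles overall), and the lists were not tested. Of all tiles 53% had a lower mean in enriched mice, with a median difference of -0.185 points. An unadjusted limma p under 0.05 was seen in 4.04% of all tiles. Among partly methylated tiles, of 10 to 50%, 2009 of 3134 (64.1%) were lower, with a median of -3.53 points.

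Granule neuron genes came first. Of their 29 tiles 20 were lower, with a median of -1.43 points, and of 9 partly methylated tiles 8 were lower, with a median of -12.7 points. The unadjusted limma p was under 0.05 in 3 of the 29 tiles, all lower, against 886 of 21909 over all tiles (4.04%), with 2.52% lower. Bcl11b, a transcription factor of granule and cortical projection neurons, had an intron tile at 57.8% ± 19.5 in 6 young and 23.8% ± 13.1 in 7 enriched mice (difference -34.0 points, limma adjusted p = 0.901). The higher tile with the smallest p was in Pdzd2 (19.8% ± 20.9 in young and 34.4% ± 22.0 in enriched mice; difference 14.5 points, 8.63 without enriched mouse 5 and 7.69 over all rows).

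Glial and vessel genes showed no common direction. Of 27 tiles of oligodendrocyte and myelin genes 11 were lower and 15 higher, with a median of 0.04 points. The unadjusted limma p was under 0.05 in 5 of the 27, 3 lower and 2 higher, against 4.04% of all tiles. Gpr17, a receptor of differentiating oligodendrocyte precursors, had a tile at 93.1% ± 6.30 in young and 79.1% ± 9.09 in enriched mice. Cldn11, a tight junction protein of myelin, had a promoter tile at 6.44% ± 10.3 and 20.8% ± 13.9. The Gpr17 difference of -13.97 points was -8.65 points without enriched mouse 4 and -0.82 points without enriched mice 4 and 8. The Cldn11 difference of 14.4 points was 4.17 points without young mouse 2, 4, 5, 6 or 8. These values rest on rows chosen again, not on the named mice alone. Without enriched mouse 2 the Cldn11 difference was 9.50 points. Of 20 astrocyte tiles 15 were lower, with a median of -0.934 points. Aqp4, the astrocyte water channel, had a promoter tile with medians of 34.4% and 21.1%, and Id3, an inhibitor of bHLH factors, one at 0.350% ± 0.989 and 2.98% ± 3.96. The Id3 difference turned from 2.63 to -0.298 points over all rows. It was 4.19 to 4.37 points without enriched mouse 4, 7 or 8, with its rows chosen again.

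Microglia genes had 9 tiles, 4 lower and 5 higher, with none under an unadjusted p of 0.05. Sall1, a transcription factor of microglial identity, had a promoter tile at 4.28% ± 4.69 and 0.960% ± 1.48, and P2ry12, a microglial purine receptor, an intron tile at 84.5 to 100% in 6 young and 99.7 to 100% in 7 enriched mice. Endothelial and mural genes had 12 tiles, 4 lower and 7 higher, among them Vwf (13.2% ± 12.8 and 3.61% ± 5.07) and Cldn5 (92.8% ± 9.65 and 98.8% ± 2.49). The Sall1 difference of -3.32 points was -2.10 to -2.07 points without enriched mouse 3, 4, 6 or 8, with its rows chosen again. Over all rows it was -0.24 points. The Cldn5 difference of 6.05 points was 3.62 points without young mouse 4. Of the partly methylated tiles 2 of 3 were lower in endothelial and mural genes (median -12.7 points), 4 of 9 in oligodendrocyte genes (median 0.04 points), 4 of 6 in astrocyte genes (median -4.42 points) and 0 of 1 in microglia genes.

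Genes of adult neurogenesis, neuronal activity and the synapse lay close to the median of all tiles. Of 67 neurogenesis tiles 36 were lower (median -0.243 points), and of 20 partly methylated tiles 10 (median 0.36 points). Their named tiles were in Tcf4, a bHLH transcription factor (medians 14.4% and 5.44%), and in Ntf3, which encodes neurotrophin-3 (3.07% ± 4.32 and 14.2% ± 12.9). Of 59 tiles of activity-induced genes 31 were lower (median -0.03 points), and of 8 partly methylated tiles 4 (median 1.88 points). Junb, a subunit of AP-1, was at 10.1% ± 8.92 and 1.26% ± 2.76, and Nr4a3, an orphan nuclear receptor, at 0.116% ± 0.327 and 2.80% ± 2.30. Of 67 synapse tiles 34 were lower (median -0.006 points), and of 12 partly methylated tiles 7 (median -3.20 points). Dlgap2, a scaffold protein of the postsynaptic density, held the named tile in each direction, an intron tile with medians of 35.5% and 23.1% and a promoter tile at 0 to 2.34% in young and 0 to 9.94% in enriched mice. The Junb difference of -8.87 points was -3.19 points over all rows. That of Nr4a3, 2.69 points, was 6.27 points without enriched mice 4 and 8, with its rows chosen again. That of the Dlgap2 promoter tile, 2.86 points, was 1.90 points without enriched mouse 3.

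Developmental transcription factors, whose CpG islands are often bound by Polycomb, had the most tiles, 401. Of these 193 were lower and 206 higher, with a median of 0.08 points. Of their 52 partly methylated tiles 32 were higher and 20 (38.5%) lower, with a median of 1.99 points, against 64.1% lower over all tiles of that level. Nkx6-1 had a tile at 10.7% ± 5.13 in young and 4.05% ± 3.44 in enriched mice, and Foxa1 one at 2.33% ± 3.14 and 10.6% ± 6.82. The Nkx6-1 difference of -6.67 points was -4.34 to -3.04 points without enriched mouse 1, 3, 4, 7 or 8, with its rows chosen again.

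Of the smaller lists, genes of published age clocks had 12 tiles, 6 lower and 6 higher. Fhl2 was at 3.23% ± 5.35 and 0.828% ± 2.05, and Kcns1 at 6.46% ± 10.4 and 16.5% ± 14.4. Without young mouse 3, with its rows chosen again, the Fhl2 difference turned from -2.40 to 1.95 points. With covered CpGs as a covariate that of Kcns1 moved from 10.1 to 5.16 points. The methylation machinery had 24 tiles, 11 lower and 13 higher. The glycosylase gene Mbd4 had medians of 3.36% and 0%, and Smug1 at 0% in 6 young mice and 3.08% ± 4.04 in 7 enriched mice. The Mbd4 difference of -3.34 points was -5.19 points without young mouse 8, with its rows chosen again. That of Smug1 was 1.72 points without enriched mouse 6. Imprinted genes had 33 tiles, 18 lower and 15 higher. Meg3, a maternally expressed non-coding RNA, had a tile at 100% in all 6 young mice with a value and at 33.3 to 100% in 8 enriched mice. Grb10, an adaptor of insulin signalling, had one at 26.2% ± 30.5 and 53.3% ± 18.8, with 4 young mice at 0%. Without enriched mice 4 and 8 its rows were chosen again, and over those rows the difference was -11.9 points, against 27.1. Over the rows first used, the other enriched mice with a value lay between 28.0 and 89.1%.

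The 4 genes the study followed up were looked at whatever their values. None of the tiles below held the single site that the study followed in Tiam1, Tshz2 or Cux2. Cux2, a transcription factor of upper-layer and granule neurons, had 9 tiles, 6 lower and 3 higher, from -13.1 to 31.4 points. Its tile with the smallest p lay in an intron (chr5:121982000-121982999): 7 young mice lay between 8.47 and 71.4% (median 45.0%) and 6 enriched mice between 49.4 and 85.7% (median 76.3%) (difference 31.4 points, SE 10.3, limma unadjusted p = 0.0102, adjusted p = 0.901). Tiam1, a Rac exchange factor of dendritic spines, had 8 tiles, 5 lower and 3 higher, from -12.8 to 3.77 points. A tile at an internal start of the gene (chr16:89960000-89960999) was at 3.41% ± 3.75 and 0.334% ± 0.662 (difference -3.07 points, limma adjusted p = 0.901). Tshz2, a zinc finger homeobox gene, had 7 tiles, all with a lower mean, from -0.03 to -10.98 points, with no unadjusted p under 0.05. Npas4, an activity-dependent transcription factor, had 1 tile, at its start (12.6% ± 10.3 and 12.0% ± 12.3, difference -0.629 points). Its difference ranged from -5.34 to 5.34 points on leaving out single mice, with its rows chosen again.

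Whole profiles separated the groups weakly. The mean absolute difference between 2 mice over the shared CpGs was 10.97 points within young, 10.6 points within enriched and 10.8 points between groups. Between-group distances exceeded within-group distances by 0.0847 points (exact one-sided permutation p = 0.0402). This call was lost, with p between 0.0573 and 0.232, on leaving out any 1 of 14 mice, all but young mouse 5 and enriched mouse 8. The within-group distances did not differ beyond what relabeling gave (-0.411 points, exact two-sided permutation p = 0.514; -0.723 to -0.0815 points on leaving out single mice). The 2 mice closest to their own group were enriched mice 8 (9.57 points) and 4 (9.72 points), those with the fewest extreme values, and the part of coverage in these distances was not tested.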

How the data were processed

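The authors deposited methylation as percent per CpG row and mouse, each strand of a CpG as its own row. Per the labels, reads were trimmed with Trim Galore 0.4.0 and cutadapt 1.8.1, mapped to mm10 with Bismark 0.16.1 and called with methylKit 1.5.2; the methods text of the study gives other versions of Trim Galore and Bismark. Rows needed at least 10 reads, a coverage up to the 99.9th percentile, and 3 mice per group. No read counts were given, so no count model was used and the precision of a percentage is unknown.

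Tile values were plain means of at least 3 rows in a mouse. Wherever mice were left out, rows, tiles and shared CpGs were chosen again among the mice left, except for the distances between mice. Differences were tested with limma 3.58.1 (R 4.3.3), with Benjamini-Hochberg adjustment over all tiles or rows. Values per mouse were tested by exact permutation over all 12870 relabelings, adjusted within each family (4 features, 6 classes, 13 subsets, 6 contrasts). Code was tested on simulated data. Features came from GENCODE M21. At 32.0% of CpGs there was no spread within groups.

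The comparison, gene lists and alternatives were chosen with earlier results of these data known. Named tiles and CpGs were those called or, where fewer were called, those of smallest unadjusted p (5 tiles or 3 CpGs per direction), plus the tile of smallest p in each direction of each list and the 4 genes the study followed up. No 2 libraries were duplicates (correlation of percentages 0.844 to 0.960).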

Additional observations from a re-analysis of the deposited data

Results flagged for a closer look

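Of 85 groups of up to 8 mice, 7 held a mouse far from the rest, its distance from the next value being a larger part of the range than Dixon's limit (0.526 for 8 mice). Chance flags about 1 in 20 groups. Young mouse 8 was high in exon CpGs (58.4%, the others 54.5 to 56.0%), in intergenic CpGs of 10 to 50% (32.4%, the others 25.7 to 28.0%) and in soft-masked CpGs of 10 to 50% (34.8%, the others 26.1 to 29.6%). Young mouse 1 was high in the CpGs of 10 to 50% of the ribosomal window (31.8%, the others 24.7 to 27.7%), and young mouse 4 in the sixth tile of that window, at CT010467.1 (29.5%, the others 23.3 to 26.1%). Young mouse 6 was high in the Gm45708 tile (71.3%, the others 40.9 to 55.0%). Enriched mouse 7 was high in CpGs of 10 to 50% with 6 to 12 neighbours (22.8%, the others 19.9 to 20.8%).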

How the results depend on the processing

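The mean over all CpGs, promoter and intron CpGs, the classes of 10 to 25% and 25 to 50% and the merged class kept their direction and call under all alternatives run; leaving out single mice moved the merged class from -4.54 to -3.47 points. Limma called 0 tiles on leaving out any mouse, 1 with a single CpG row per mouse (chr2:106385000-106385999) and 1 on the arcsine scale (Nek1 intron, adjusted p = 0.00163). It called 76 CpGs (58 lower, 18 higher) with 3 mice per group, 3 on the arcsine scale and 0 to 4 without single mice, against 1. Tiles under 0.05 before adjustment were 254 (3.87% of tiles) with 8 mice per group and 566 (3.92%) with 5 rows per tile, shares close to 4.04%; tiles over 25 points were 7 (0.107%), 78 (0.54%) and, with 1 row per mouse, 364 (1.24%), against 0.885%.

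Exon CpGs passed with at least 14 mice (-1.16 points) or without young mouse 2, 4 or 7, and ranged from -1.13 to -0.440 without single mice. The class of 75 to 90% turned to 0.147 with at least 14 mice (-0.601 to 0.124 without single mice). Adjusted for covered CpGs, the classes under 10% (-0.390), of 50 to 75% (-2.10) and over 90% (0.337) passed. Without enriched mice 4 and 8, the classes under 10% (-0.638) and over 90% (0.762) passed and intergenic CpGs did not (-0.610). Without single mice the class under 10% ranged from -0.463 to -0.176 and that of 50 to 75% from -2.68 to -1.08. The group separation did not pass in tiles (0.0405, exact permutation p = 0.0539), and was 0.0327 to 0.128 without single mice; the within-group difference was 0.257 over rows of 20 to 80%.

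Of named tiles, Npas4 turned to 1.07 with strands averaged, 2.42 over all rows and 1.52 without enriched mice 4 and 8 (-5.34 to 5.34 without single mice), Id3 to -0.298 over all rows, Grb10 to -11.9 without enriched mice 4 and 8, and Fhl2 ranged from -3.37 to 1.95. In these fits a tile's CpG rows could differ from those of the main fit. The causes were not tested.

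Replicate numbers did not pair the mice (correlation of same-numbered deviations -0.0188 to 0.00632). With a replicate block, 6 CpGs were called, Psrc1 was not (-47.97 points, adjusted p = 0.945), and the classes under 10% (-0.314) and of 50 to 75% (-1.94) passed. Depth per percentage is unknown, and its effect on single CpGs, tiles and classes was not compared.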
